A study of Myzus persicae with 8 samples.

Results

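Troponin c (contig1217) and flightin (contig2627) were the 2 muscle contigs followed here, among 10489 contigs of a dual-color Agilent array for the green peach aphid, *Myzus persicae*. Each contig carried 2 probes, a and b, so 4 of 14628 probes were considered. Both contigs were chosen by the size of their log2 ratio in the S genotype, and their S ratios are therefore given as a description without a test. The genotypes compared were S, SR and MR. S is sensitive to insecticides, SR is resistant by a single mutation (kdr), and MR is resistant by multiple mutations (MACE and kdr). Each genotype was represented by 1 lineage. Adult wingless aphids, 7 days old, were kept on pepper leaf discs and sprayed with 1 ml of pirimicarb at 20 ppm in acetone plus water, or with the control spray, which the sample titles and the study's methods call water and the treatment tags acetone plus water (called water here). Pirimicarb is a carbamate that inhibits acetylcholinesterase. The paper expects kdr to give no resistance to insecticides of this kind. In its leaf-dip bioassay, the median lethal concentration of pirimicarb was similar in S and SR and far higher in MR. The 20 ppm used here lay above that concentration in S and SR and below it in MR. The bioassay dipped the leaf discs and was scored later than the 24 h used here, so its exposure was not that of the spray. RNA was taken from whole aphids, about 40 per extract, that were alive 24 h after the spray. Every array held the insecticide extract of a replicate in one dye and the matching water extract in the other. There were 3 replicates of S (A, B and C), 2 of SR (A and B) and 2 of MR (A and B), on 8 arrays in all because replicate A of MR was hybridized on 2 arrays that were averaged. Labels were unclear for 2 arrays: the one titled S replicate A has a genotype tag that reads SR, and the title of the second MR array gives its water RNA as replicate C. The first was used as S, by its title and description. The second was used as a technical replicate of MR replicate A, by its description and against its title. The paper states 3 biological replicates for MR, so results with the 3 MR arrays kept separate are also given below. The S means without S replicate A, and the flightin test in water-treated aphids without either array, are given below.

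Troponin C is the subunit of the thin filament that binds calcium and so switches muscle contraction on. Insects carry several forms of it, and in *Drosophila* a particular form is abundant in the flight muscles that are activated by stretch. Flightin, known from *Drosophila*, binds the myosin of the thick filament in indirect flight muscle and is needed for flight. Aphids of 1 genotype can grow into winged or wingless adults, and all extracts measured here were labeled as wingless adults. A whole-aphid extract does not tell fewer muscle cells from less transcript per cell.

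On the 8 arrays, 87.1% to 93.4% of probes were well above background in both channels, no spot was saturated, and the median log2 ratio lay between -0.02 and 0.01. The spread of the log2 ratio over all probes was lowest in SR replicate B (SD 0.28) and highest in SR replicate A (SD 0.75). Across probes, the replicates of S correlated with r = 0.293 to 0.478, those of SR with r = 0.0828 and those of MR with r = -0.548, whereas the 2 arrays of MR replicate A gave r = 0.978. In SR and in MR, replicates A and B had opposite dye orientations, so dye and replicate cannot be told apart in these correlations. All arrays came from 1 slide and 1 scan.

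Before any normalization, the probes of both contigs were bright in SR and dim in MR. The median scanner signal of the troponin c spots ranged from 579 to 13164 in SR, from 289.5 to 19785 in S and from 88 to 711 in MR. For flightin the signals ranged from 2260 to 16740.5 in SR, from 210 to 11206 in S and from 154 to 492.5 in MR. The local background beside these spots was 49.5 to 86. In SR, every spot of both contigs was well above background in both channels. In MR, probe a of each contig was well above background on all 3 arrays in both channels, and probe b of each contig was not well above background on any. Probe b of flightin was also not well above background in the water channel of S replicate C.

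**Figure D1:**
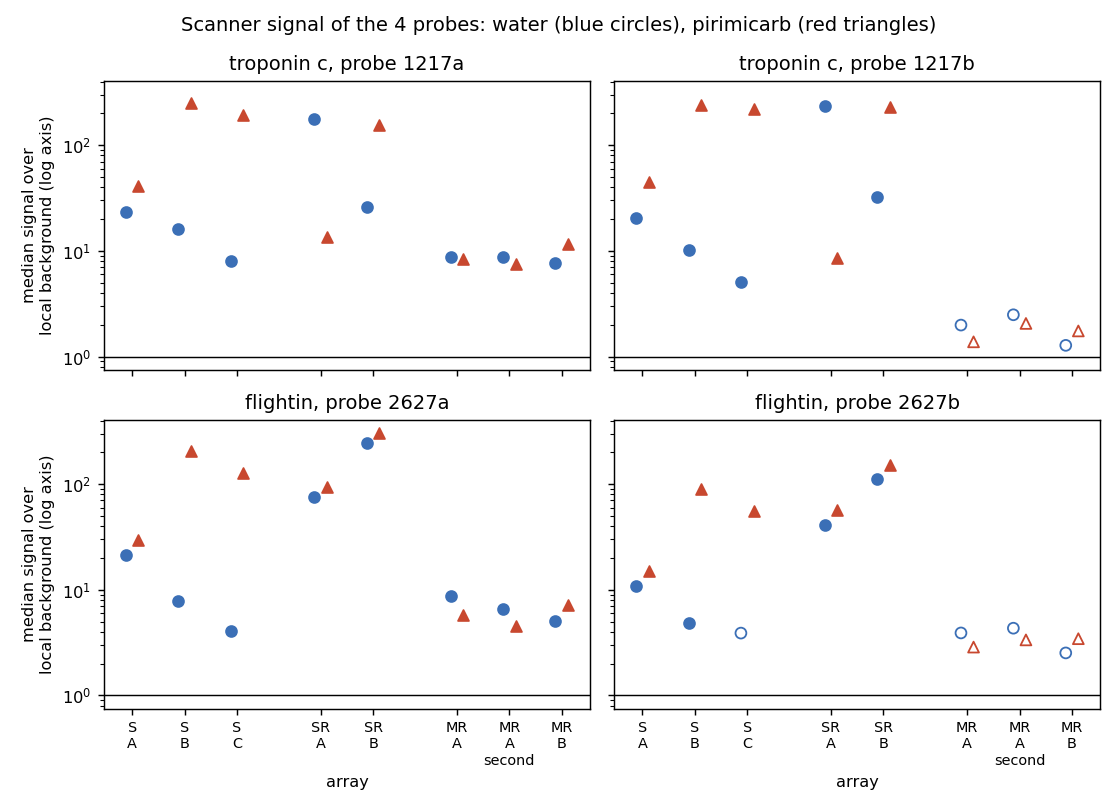
Median scanner signal divided by local background (log axis) for the 4 probes on the 8 arrays, with water as blue circles and pirimicarb as red triangles; open symbols are spots that were not well above background. Flightin signals in SR reach 304 times background, while the signals of probe b of both contigs in MR are between 1.28 and 4.33 times background and open.

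The level of each contig was then taken as the log2 intensity in each extract after normalization within and between arrays, averaged over its 2 probes. Troponin c levels in water-treated S aphids were 10.83, 10.14 and 8.88 in replicates A, B and C, and in insecticide-treated S aphids they were 11.52, 13.61 and 13.73. In SR, troponin c levels were 13.65 and 11.45 in water and 10.16 and 12.86 after insecticide, in replicates A and B. In MR, they were 7.74 and 7.74 in water and 8.22 and 7.42 after insecticide. The troponin c transcript was therefore lowest in all 4 MR extracts, and its highest levels were reached both in insecticide-treated S aphids and in a water-treated SR extract.

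Flightin levels in water-treated S aphids were 10.27, 9.01 and 8.13, and in insecticide-treated S aphids they were 10.34, 12.36 and 12.18. In SR, flightin levels were 11.88 and 13.86 in water and 13.00 and 12.91 after insecticide. In MR, they were 8.01 and 7.82 in water and 8.34 and 7.39 after insecticide. Flightin was thus highest in SR under both treatments and lowest in MR, with the water extract of S replicate C inside the MR range.

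**Figure D2:**
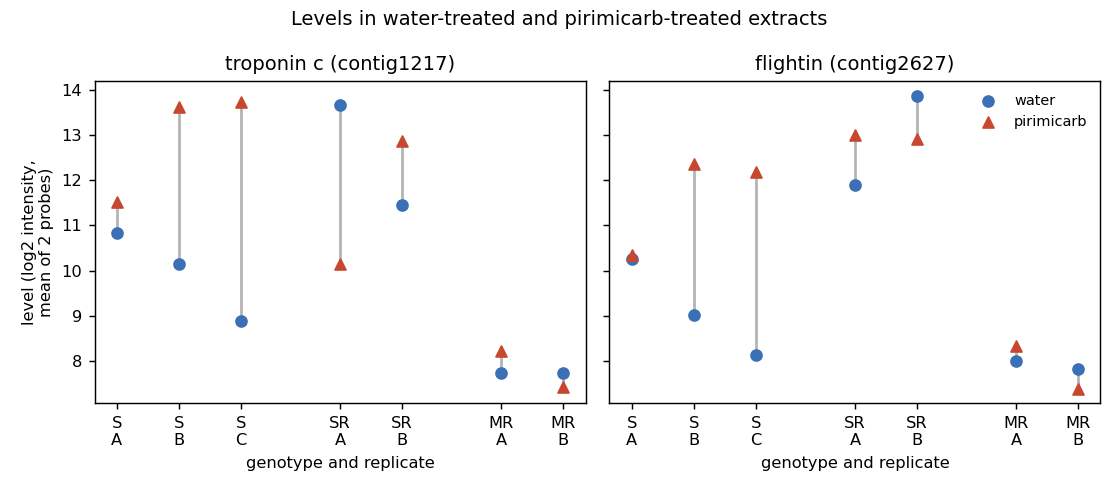
Levels of troponin c and flightin (log2 intensity, mean of 2 probes) in the water extract (blue circles) and the pirimicarb extract (red triangles) of each replicate, joined by a gray line. All SR levels are above all MR levels, from 10.16 to 13.65 against 7.42 to 8.22 for troponin c and from 11.88 to 13.86 against 7.39 to 8.34 for flightin.

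Ordered by the mean of genotype and treatment, troponin c levels were 12.95 ± 1.24 (SD, n = 3) in insecticide-treated S, 12.55 ± 1.56 (n = 2) in water-treated SR, 11.51 ± 1.91 (n = 2) in insecticide-treated SR, 9.95 ± 0.99 (n = 3) in water-treated S, 7.82 ± 0.56 (n = 2) in insecticide-treated MR and 7.74 ± 0.01 (n = 2) in water-treated MR. Neighbors in this order overlapped, except for water-treated S, whose lowest level of 8.88 was above the highest MR level of 8.22. For flightin the order was 12.95 ± 0.06 (n = 2) in insecticide-treated SR, 12.87 ± 1.40 (n = 2) in water-treated SR, 11.63 ± 1.12 (n = 3) in insecticide-treated S, 9.13 ± 1.07 (n = 3) in water-treated S, 7.91 ± 0.13 (n = 2) in water-treated MR and 7.86 ± 0.67 (n = 2) in insecticide-treated MR. The flightin levels of SR overlapped between treatments and with insecticide-treated S, and those of MR overlapped between treatments. Water-treated S did not overlap its neighbors in this order, by a narrow margin on both sides: its highest level was 10.27 against a lowest of 10.34 in insecticide-treated S, and its lowest was 8.13 against a highest of 8.01 in water-treated MR. Every S level of troponin c was above every MR level, a pattern found in 1.58% of contigs, and this was not so for flightin. This is a description only. The S levels belong to the extracts whose ratio chose the contigs, and the MR levels include the dim probe b.

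From the lowest to the highest of the 14 extracts, troponin c spanned 6.31 and flightin 6.47 on the log2 scale. These spans include the S extracts whose ratio chose the contigs and the MR extracts in which probe b was not well above background. Over the 14 extracts the levels of the contigs correlated with r = 0.824, a description only, since extracts of 1 array share a hybridization and those of 1 genotype a lineage.

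The comparison of SR with MR did not enter the choice of the contigs and was tested. The test itself was chosen with earlier results of these data known. All 4 SR levels lay above all 4 MR levels for both contigs, which was the case for 2.42% of contigs. The gap between the lowest SR and the highest MR level was 1.94 for troponin c and 3.55 for flightin. In water-treated aphids, the level in SR minus that in MR was 4.81 for troponin c and 4.96 for flightin on the log2 scale, as the mean of their probes. For flightin, probe b passed the test (log2 difference 4.81, adjusted p = 0.0479, limma separate-channel fit with Benjamini-Hochberg adjustment) and probe a did not (5.11, adjusted p = 0.0714). For troponin c, neither probe b (5.95, adjusted p = 0.119) nor probe a (3.67, adjusted p = 0.527) passed. Over all contigs, 0.125% were called higher in SR in this test.

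The flightin call was close to the threshold. It was lost in 9 of 13 other settings, and also when any replicate other than S replicate A was left out, with the difference between 3.97 (without SR replicate B) and 5.95 (without SR replicate A). With replicate letter as a block, its adjusted p was 0.146. In the limma separate-channel fit, its adjusted p was 0.0180 without S replicate A, 0.173 without S replicate B and 0.110 without S replicate C. Without the second MR array it was 0.0395.

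Insecticide-treated aphids gave a similar picture, in a comparison added after the values had been seen. The level in SR minus that in MR was 3.69 for troponin c and 5.09 for flightin. Flightin probe b passed (4.88, adjusted p = 0.0420, limma), and probe a (5.30, adjusted p = 0.0618) and both troponin c probes (4.73 and 2.65, adjusted p = 0.299 and 0.771) did not. Here too 0.125% of contigs were called higher in SR, and the flightin call was lost in 6 of 13 other settings and on leaving out any replicate except S replicate A.

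Because probe b of both contigs was not well above background in MR, its differences of means are given as lower bounds. In water-treated aphids, the mean SR level of probe b was at least 42.7-fold the mean MR level for troponin c. For flightin it was at least 28.1-fold, which was also the measured fold. After insecticide these bounds were 15.3-fold for troponin c and 27.4-fold for flightin. The bound sets the mean SR level against the mean, over MR, of the probe's own level or of the dimmest probe well above background on that array, whichever was higher. It does not allow for the spread between SR replicates. For probe b of troponin c, SR replicates A and B were at 13.83 and 11.61 in water and at 9.87 and 13.13 after insecticide. For probe b of flightin they were at 11.32 and 13.33 in water and at 12.44 and 12.33 after insecticide. Probe a, measured in both genotypes, gave a fold of 12.7 in water and 6.29 after insecticide for troponin c, and of 34.6 and 39.3 for flightin. An offset of 50 was added to every intensity, which narrows differences that involve dim spots. Averaged over both treatments and both probes, the measured SR minus MR difference was 5.03 for flightin and 4.25 for troponin c, and since it includes probe b it is not an exact size.

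**Figure D3:**
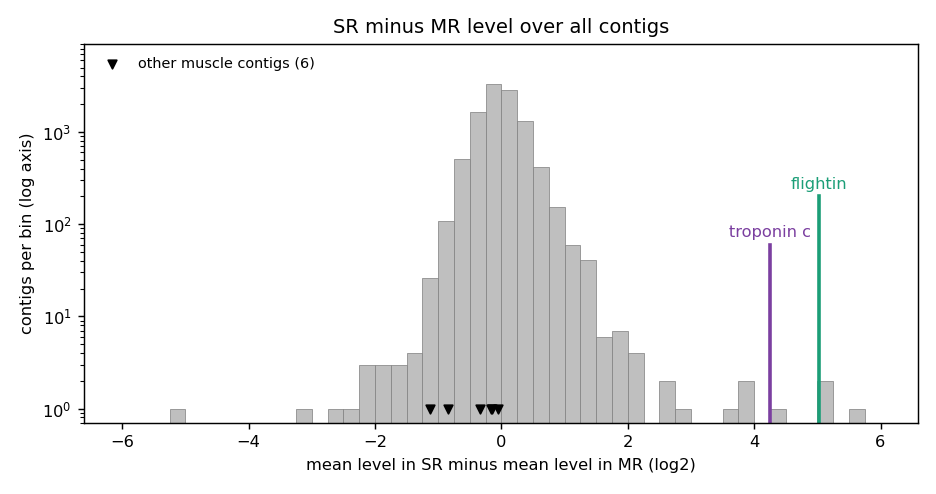
Histogram of the mean level in SR minus the mean level in MR (log2, both treatments) over all contigs, with a log axis for contigs per bin. Vertical lines mark the measured values of troponin c at 4.25 and flightin at 5.03. Black triangles mark 6 other contigs described with muscle words, which lie between -1.13 and -0.06.

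In the S genotype, the log2 ratio of insecticide over water was 0.69, 3.47 and 4.85 for troponin c in replicates A, B and C, and 0.07, 3.35 and 4.05 for flightin. The means were 3.00 ± 2.12 (SD, n = 3) and 2.49 ± 2.12 (SD, n = 3). After insecticide both contigs were thus 10.2- to 28.8-fold as high as in water in replicates B and C, whereas in replicate A flightin was 1.05-fold and troponin c 1.61-fold as high. Without replicate A, the array with the unclear genotype tag, the means were 4.16 for troponin c and 3.70 for flightin. The range over replicates was 4.16 and 3.97. The levels show where the difference lay: replicate A had the highest water level and the lowest insecticide level of the 3 replicates, for both contigs. Insecticide was in Cy5 in replicates A and C and in Cy3 in replicate B, so the higher level after insecticide in B and C was seen in both dye orientations.

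In SR, troponin c was lower after insecticide in replicate A and higher in replicate B, with log2 ratios of -3.50 and 1.41. Flightin had the opposite signs, with 1.11 in replicate A and -0.96 in replicate B. The mean was -1.04 ± 3.47 (SD, n = 2) for troponin c and 0.08 ± 1.46 (SD, n = 2) for flightin, and the replicates of both contigs disagreed in sign. Neither contig passed the test in SR (all 4 probes at adjusted p = 1.000, limma), where 0% of contigs were called at an adjusted p under 0.05 and 248 of 10489 had a probe with an unadjusted p under 0.05. The replicate range of troponin c, 4.91, was reached by 0.0954% of contigs, and that of flightin, 2.07, by 2.96%. The contigs differed from each other within each array, by -4.61 in replicate A and 2.37 in replicate B (troponin c minus flightin).

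On the scale of the dyes, each contig kept its sign across the SR arrays. Troponin c was dimmer in Cy5 than in Cy3 on both (log2 -3.50 and -1.41), and flightin was brighter in Cy5 on both (1.11 and 0.96). With 1 array per orientation, dye and replicate cannot be told apart in SR. The flightin signals before normalization were nearly level: the log2 of insecticide over water signal was 0.63 in replicate A and 0.14 in replicate B, where the median of all probes was -0.47 and 1.08. The opposite signs of flightin in SR thus appeared once each array was normalized. For troponin c the raw values were -4.02 and 2.55, and their signs were the same before and after normalization.

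In MR, the log2 ratio of troponin c was 0.48 and -0.33 in replicates A and B, and that of flightin 0.33 and -0.43. The means were 0.08 ± 0.57 (SD, n = 2) and -0.05 ± 0.54 (SD, n = 2). On the scale of the dyes, each contig kept its sign in MR too. In replicates A and B, the log2 of Cy5 over Cy3 was 0.48 and 0.33 for troponin c and 0.33 and 0.43 for flightin. Dye and replicate cannot be told apart in MR either. Neither contig passed the test (all 4 probes at adjusted p = 1.000, limma), where again 0% of contigs were called and 63 had a probe with an unadjusted p under 0.05. Averaged over both probes, the spread between replicates was near the middle of all contigs. A range at least as wide as the 0.81 of troponin c was found in 43.1% of contigs, and as the 0.76 of flightin in 45.7%. The 2 arrays of replicate A gave 0.39 and 0.57 for troponin c and 0.29 and 0.37 for flightin. As probe b was not well above background in MR, its ratios there, between -0.28 and 0.27 for both contigs, carry little information. Averaging them in narrowed the ranges above. Probe a alone gave 0.96 and -0.66 for troponin c in replicates A and B, and 0.40 and -0.58 for flightin.

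The response of SR was also set against that of MR. The difference of log2 ratio, SR minus MR, was -1.12 for troponin c and 0.13 for flightin, and no probe of either passed (adjusted p = 1.000 for all 4, limma fit of the 7 replicates). No contig did, giving 0% called, although 181 contigs had a probe with an unadjusted p under 0.05.

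Probes a and b of a contig gave the same sign of ratio in all 7 replicates for flightin and in 6 for troponin c. The exception was MR replicate B, where probe a of troponin c gave -0.66 and probe b 0.01. In S replicate C, where the ratios were largest, the probes of troponin c gave 4.26 (a) and 5.44 (b), and those of flightin 4.65 (a) and 3.45 (b). The disagreement of replicates within S and SR was therefore present in both probes of each contig.

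Other contigs described with muscle words, 6 in all, were used for comparison and are called the other muscle contigs. They were actin (contig9627), 2 tropomyosins (contig6034 and contig3546), paramyosin (contig847), a myosin heavy chain (contig627) and a calcium pump (contig6666). In muscle, actin forms the thin filament, tropomyosin lies along it, paramyosin belongs to the thick filament, and the pump returns calcium to its store. The myosin is described as nonmuscle or smooth muscle, and the pump as a sarcoplasmic endoplasmic reticulum type. The actin description names no tissue. These descriptions therefore do not place all 6 contigs in muscle. Their descriptions come from the study's list of responding genes, so their higher ratios in S are no independent evidence. In S, 6 of 6 passed a log2 ratio above 1 with an unadjusted P under 0.05 in at least 1 probe, against 1.89% of all contigs, and their median log2 ratio was 1.17, with the median of all contigs at 0.

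In SR and MR none of the 6 passed both thresholds in either direction, against 0.172% of contigs higher and 1.13% lower in SR, and 0.0191% higher and 0.582% lower in MR. The counts changed when a replicate was left out and all remaining replicates were fitted together: without SR replicate B 1 passed in SR, and without MR replicate B 4 passed in MR. These fits leave 1 replicate in that genotype and take its spread from the other genotypes. The list median was -0.13 in SR and -0.45 in MR. By replicate, that median was -0.78 in SR A and 0.62 in SR B, and -1.60 in MR A and 0.73 in MR B, so replicates of 1 genotype differed in this list too. Insecticide was in Cy5 in both A replicates and in Cy3 in both B replicates, so dye and replicate cannot be told apart here. In SR replicate A 5 of the 6 had ratios below 0 as troponin c did, from the myosin heavy chain (-3.85) and paramyosin (-2.34) to a tropomyosin (contig6034, -0.11), while actin (0.92) and flightin (1.11) were above 0. In SR replicate B all 6 were above 0, between 0.34 and 0.90, as was troponin c (1.41), and flightin was below (-0.96). In MR replicate A all 6 were lower after insecticide, between -2.81 and -1.21, while troponin c and flightin were not (0.48 and 0.33). In MR replicate B all 6 were higher, between 0.23 and 1.26, and troponin c and flightin were lower (-0.33 and -0.43). On the scale of the dyes, all 6 were thus dimmer in Cy5 than in Cy3 in both MR replicates.

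**Figure D4:**
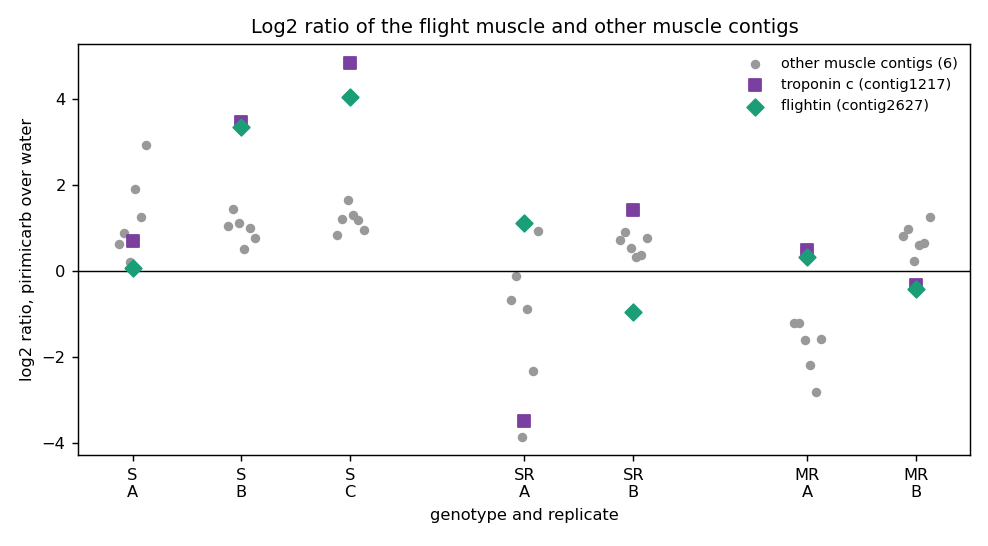
Log2 ratio of pirimicarb over water in each replicate for troponin c (purple squares), flightin (green diamonds) and the 6 other muscle contigs (gray points). In S replicates B and C troponin c and flightin, at 3.35 to 4.85, are above all gray points, which reach 1.66, and in SR replicate A troponin c (-3.50) and flightin (1.11) lie on opposite sides of 0.

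The other muscle contigs had no such difference between SR and MR that passed the test. Their SR minus MR difference ranged over probes from -1.39 to 0.48 in water and from -0.87 to 0.39 after insecticide. Averaged over treatments and probes, all 6 were lower in SR than in MR, from -1.13 (calcium pump) to -0.06 (contig6034). From the highest difference down, the calcium pump ranked 10452nd and paramyosin 10394th of 10479 contigs. None of the 6 passed the test (lowest adjusted p = 0.862 in water and 0.892 after insecticide, limma), and for none of them did the SR and MR levels stay apart.

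By the rule of likeness, the contigs nearest to troponin c in their log2 ratios over the 7 replicates were contig621, contig6180, contig7447, contig5598 and contig6725, with root mean square differences of 1.64 to 1.73. Of these, contig7447 is described as an unknown protein and the others carry no description in the sources used here. The myosin heavy chain was next, in sixth place, with a difference of 1.75 and r = 0.892, and like troponin c it had its lowest ratio in SR replicate A. By Pearson correlation over the 7 replicates, contig4678 (r = 0.996), contig3744 (0.988), contig5654 (0.974), contig1604 (0.970) and contig7068 (0.969) came first, all without a description.

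The contig nearest to flightin was contig3597, described as a secreted salivary peptide, with a root mean square difference of 0.729 and log2 ratios of 0.53, 2.54 and 3.24 in S, 0.67 and 0.09 in SR, and 0.69 and -1.31 in MR. It was followed by contig9366 (1.05), contig8082 (1.08), contig15197 (1.14) and contig1978 (1.15), of which contig8082 and contig1978 have the same description, a partial match to a mosquito gene model, and the other 2 have none. By correlation, contig8590 (r = 0.963), contig9366 (0.956), contig4173 (0.952), contig8766 (0.930) and contig9817 (0.929) came first, and among them only contig8766, a ribosomal protein S11, is described. Troponin c and flightin were not each other's nearest contigs: their root mean square difference was 2.00 and their ratios correlated with r = 0.607, which ranked flightin 67th by difference for troponin c and troponin c 1267th for flightin. All these likenesses include the S ratios by which troponin c and flightin were chosen.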

How the data were processed

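The deposited files are scanner output with median intensity and local background intensity per spot and channel, which the authors obtained from two-color arrays. The authors normalized within arrays by loess and fitted limma per genotype. Deposited tables of the authors' own comparisons (fold changes and P values) were not used, and from the study's supplementary list of responding genes only the contig names and descriptions were read. Here 1116 control features of 15744 were removed, the background was corrected by normexp with an offset of 50, each array was normalized by loess, and spots flagged as outliers were left out. Ratios were turned to insecticide over water by dye. limma 3.58.1 (R 4.3.3) was fitted per genotype for the ratios, over 7 replicates for SR minus MR, and to separate channels after Aquantile for levels (14540 probes without missing values, within-spot correlation -0.0658, the spread shared by the 3 genotypes). P values were adjusted by Benjamini-Hochberg over all probes, and a contig was called when at least 1 probe had an adjusted p under 0.05. The P values set each difference against the spread between these extracts, and not between lineages, since each genotype was 1 lineage. The number of arrays limits the precision. Members, lists and tests were chosen with earlier results of these data known. Named genes were both members, contigs described with muscle words, and the 5 nearest contigs per member by root mean square difference and by correlation. The fits of the SR ratio, the SR minus MR ratio and the SR minus MR water level were tested on simulated data. No contig matched the RefSeq gene table by name (0 matches). Alternatives were other background corrections, centring, filters, weights of the MR arrays, fits with dye or replicate letter, and each replicate left out.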

Additional observations from a re-analysis of the deposited data

Results flagged for a closer look

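One contig named for its likeness to flightin, contig9817, had a log2 ratio above 0 in every S replicate (0.03, 0.60 and 0.84) and below 0 in both SR replicates (-0.15 and -0.17). The S minus SR difference of the means was 0.65. The difference was not tested, and contig9817 was named by a rule that used these ratios.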

How the results depend on the processing

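The water level of flightin in SR minus MR kept its direction in all 20 settings and lost its call in 15. Without the call, it was 5.43 with plain background subtraction, 4.88 with median centring, 4.96 with outlier spots kept (adjusted p = 0.0510), with an intensity trend and robust eBayes, with quantile normalization of all channels, with probes averaged and with the replicate block, 5.11 with dim probes left out, and 4.59 with no normalization between arrays. Leaving out each replicate gave 3.97 to 5.95. Over all settings its adjusted p ranged from 0.00528 to 0.675. The troponin c difference was called only with the 3 MR arrays as separate replicates (4.81, adjusted p = 0.0172). Under the replicate block troponin c stayed uncalled (4.81, adjusted p = 0.207). The letters A and B do not mark a shared batch in the labels. Deviations of same-lettered replicates correlated between -0.369 and 0.502, and letter and dye orientation run together.

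None of the ratios of SR, MR or SR minus MR was called in any setting. Small means changed sign: troponin c in MR was -0.086 with median centring, and flightin in MR was 0.077 with the 3 MR arrays separate. With each replicate left out and the rest fitted together, with the spread of a single remaining replicate taken from the other groups, troponin c ranged from -3.50 to 1.41 in SR, -0.33 to 0.48 in MR and -3.57 to 1.33 in SR minus MR. Flightin ranged from -0.96 to 1.11 in SR, -0.43 to 0.33 in MR and -0.91 to 1.16 in SR minus MR. The cause was not tested. The count of muscle contigs past both thresholds was 1 in SR with the replicate block and 1 in MR with the intensity trend, and ranged from 0 to 1 in SR and from 0 to 4 in MR with each replicate left out. Probe b of both contigs, dim in MR, limits what can be said of ratios there.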
